A study of Mus musculus and Homo sapiens with 20 samples.

Results

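The genes described here encode the proteins of the mitochondrial ribosome. They are the rows of 3 gene count tables whose symbol is MRPL or MRPS (in either case) followed by digits and at most 1 letter, and whose mean level reached 1 CPM, a count scaled to a fixed library total. The rule kept 74 of 86 matching rows in the human K562 table and 76 of 78 in each of the mouse MEF and HPC-7 tables, out of 63568, 43626 and 43626 genes. All kept genes passed the filter on low counts and were tested. The lowest kept K562 gene, MRPL53, averaged 3.22 CPM and the highest row left out, MRPS24, averaged 0.646 CPM. In MEF the corresponding genes were Mrpl36 at 4.27 CPM and Mrpl53 at 0.123 CPM, and in HPC-7 Mrpl55 at 8.62 CPM and Mrpl53 at 0.170 CPM. The other rows left out were additional entries of a symbol already kept, or, for MRPL30 in K562, rows averaging 0.0664 CPM or less.

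The study asked what HSP90 does in the nucleus, and sequenced RNA after 16 h of NVP-AUY922, a drug that occupies the ATP pocket of the HSP90 chaperone. HSP90-inhibited cells (HSP90i) received 300 nM in K562, a human chronic myeloid leukaemia line, 200 nM in MEF, mouse embryonic fibroblasts, and 50 nM in HPC-7, a mouse blood progenitor line, and each line had Control cells whose count columns are headed DMSO. There were 3 libraries per group. No genetic change was labelled in any group, and nothing in the labels ties a replicate to a culture of its own, so the p-values reflect only how much these libraries vary, which may be technical. Dose and line change together and cannot be told apart.

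Mitochondrial ribosomes translate the few proteins encoded by mitochondrial DNA, all of them membrane subunits of the respiratory chain and ATP synthase. Their RNAs come from mitochondrial DNA, whereas all their proteins are encoded in the nucleus, made in the cytosol and imported. The small subunit decodes the mRNA, and the large subunit joins the amino acids and feeds the new chain to the inner membrane. Some proteins have a counterpart in bacterial ribosomes and others exist only in mitochondria. NRF1, ETS-family factors such as GABPA, and YY1 are textbook regulators of nuclear genes for mitochondrial proteins, and MYC is known to raise their expression in growing cells.

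The promoters of 67 of the 76 mouse genes were found in the RefSeq table for GRCm38.p6, which gives 250 bases before to 50 after a start site. They lie on 16 chromosomes. For each gene the first listed window was used, and its start site need not be the outermost one. For Mrpl18, on the minus strand, the start used was 12916091 and the gene reaches 12917787. For Mrpl24, on the plus strand, the start used was 87919544 and the gene begins at 87918131. The 5 windows printed below belong to genes on which the results turn: Mrpl12 and Mrpl17, among the largest falls in both mouse lines, Mrpl18, which went opposite ways in K562 and the mouse lines, Mrps11, which shares its start region with another member, and Mrpl24, which rose in both mouse lines. Capitals mark matches, on either strand, to the NRF1 motif (GCGC, any base, TGCGC), the ETS motif CCGGAAG and the YY1 motif AAGATGGCG. None of the 5 held the E-box CACGTG, to which MYC binds, and Mrpl24 held none of these 4 motifs. The windows are chr11:120484387-120484686 on the plus strand for Mrpl12, chr7:105811038-105811337 on the minus strand for Mrpl17, chr17:12916042-12916341 on the minus strand for Mrpl18, chr7:78782881-78783180 on the plus strand for Mrps11 and chr3:87919294-87919593 on the plus strand for Mrpl24.
Mrpl12: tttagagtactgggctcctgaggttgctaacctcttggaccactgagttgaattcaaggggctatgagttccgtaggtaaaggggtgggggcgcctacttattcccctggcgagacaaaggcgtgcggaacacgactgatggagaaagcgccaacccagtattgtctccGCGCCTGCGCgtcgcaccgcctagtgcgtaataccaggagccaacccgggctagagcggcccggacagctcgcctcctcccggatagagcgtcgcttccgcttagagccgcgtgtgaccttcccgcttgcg
Mrpl17: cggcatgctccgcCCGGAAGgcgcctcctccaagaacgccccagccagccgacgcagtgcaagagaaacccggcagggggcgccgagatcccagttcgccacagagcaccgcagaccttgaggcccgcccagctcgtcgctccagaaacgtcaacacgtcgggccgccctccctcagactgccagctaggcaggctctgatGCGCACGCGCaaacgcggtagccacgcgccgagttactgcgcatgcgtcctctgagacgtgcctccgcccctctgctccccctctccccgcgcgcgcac
Mrpl18: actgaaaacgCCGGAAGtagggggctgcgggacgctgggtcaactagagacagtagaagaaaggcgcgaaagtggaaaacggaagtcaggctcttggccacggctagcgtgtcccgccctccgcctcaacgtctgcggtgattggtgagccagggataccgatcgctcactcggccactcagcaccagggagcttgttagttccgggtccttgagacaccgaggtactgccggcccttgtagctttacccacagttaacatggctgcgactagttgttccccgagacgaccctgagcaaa
Mrps11: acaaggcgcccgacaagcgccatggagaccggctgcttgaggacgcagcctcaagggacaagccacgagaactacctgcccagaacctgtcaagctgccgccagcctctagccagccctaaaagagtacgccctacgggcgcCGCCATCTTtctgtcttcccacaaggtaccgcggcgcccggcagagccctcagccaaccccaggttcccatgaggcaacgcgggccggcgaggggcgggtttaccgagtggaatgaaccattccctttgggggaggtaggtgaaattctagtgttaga
Mrpl24: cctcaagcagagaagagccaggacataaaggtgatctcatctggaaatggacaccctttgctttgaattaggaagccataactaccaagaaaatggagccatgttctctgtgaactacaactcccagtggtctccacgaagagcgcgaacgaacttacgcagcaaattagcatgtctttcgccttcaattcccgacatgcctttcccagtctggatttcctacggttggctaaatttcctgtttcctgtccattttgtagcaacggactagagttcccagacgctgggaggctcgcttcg

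Among the 67 windows, 19.4% held the NRF1 motif, 34.3% the ETS motif, 11.9% the YY1 motif and 7.5% the E-box. The shares over all 17492 protein-coding promoters of the same length were 6.6%, 11.9%, 1.9% and 7.9%. Over the 8180 promoters of genes tested in HPC-7 they were 11.8%, 20.3%, 3.7% and 10.5%. The NRF1, ETS and YY1 letters were thus more frequent in these windows than in either background, and the E-box letters about as frequent as over all promoters. The GC-box GGGCGG was present in 50.7%, against 46.3% of all promoters and 65.9% of tested ones. No window matched the heat-shock element (GAA, TTC and GAA, each separated by any 2 bases), which 0.5% of all promoters held. Matches were sought on both strands. Those of the NRF1, ETS, YY1 and E-box letters did not overlap each other in any of the 67 windows, and an ETS match overlapped a GC-box in 2 (Mrpl17 and Mrps16). The median GC content was 58.0% in these windows, 56.3% over all promoters and 61.3% over those tested in HPC-7. A match describes the letters and does not show binding.

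Library totals were 7936066 to 10950573 counts in K562, 10542305 to 22872539 in MEF and 10131491 to 16859394 in HPC-7. In HPC-7 all 6 blood progenitor markers listed (Kit, Ptprc, Gata2, Tal1, Lmo2, Cd34) exceeded 1 CPM, and 4 of 5 epithelial markers were at 0 in every library. In MEF all 6 fibroblast markers exceeded 1 CPM. K562 libraries carried the erythroid markers HBG1, HBG2, HBZ, GATA1 and TAL1, while 3 of 6 fibroblast markers were at 0. In K562 4 of 5 epithelial markers also exceeded 1 CPM, and the list summed to 600 to 672 CPM in HSP90i libraries and 546 to 877 CPM in Control libraries; their part in the K562 results was not tested. K562 Control replicate 1 stood apart from the other K562 Control libraries: its median log2 level over the mitochondrial ribosomal genes was 0.30 above the Control mean, against -0.11 and -0.19 in replicates 2 and 3, and its median over 81 cytosolic ribosomal protein genes was 0.51 above, against -0.18 and -0.31. Counts over K562 gene lists are therefore given with and without it.

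The family fell together in HPC-7, split in MEF and was largely uncalled in K562. Levels below are CPM scaled by TMM factors, and a gene was called when its adjusted p in edgeR's quasi-likelihood test, over all genes tested in that line, was under 0.05. In HPC-7, 69 of 76 genes fell and 2 rose, where 36.6% of all tested genes fell and 36.5% rose. In MEF, 36 of 76 fell and 10 rose, where 38.2% of all tested genes fell and 35.1% rose. In K562, 1 of 74 fell and 1 rose, where 5.96% of all genes fell and 5.11% rose; the gene that fell did so by at least 1.5-fold, as did 5.54% of all genes, and by less than 2-fold, the size reached by 3.11% of all genes. The median log2 fold change of the family was -0.65 in HPC-7, -0.12 in MEF and -0.06 in K562, beside medians over all tested genes of 0.00, -0.01 and -0.02. In these bulk libraries, fewer cells of a type and less RNA per cell cannot be told apart.

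**Figure D1:**
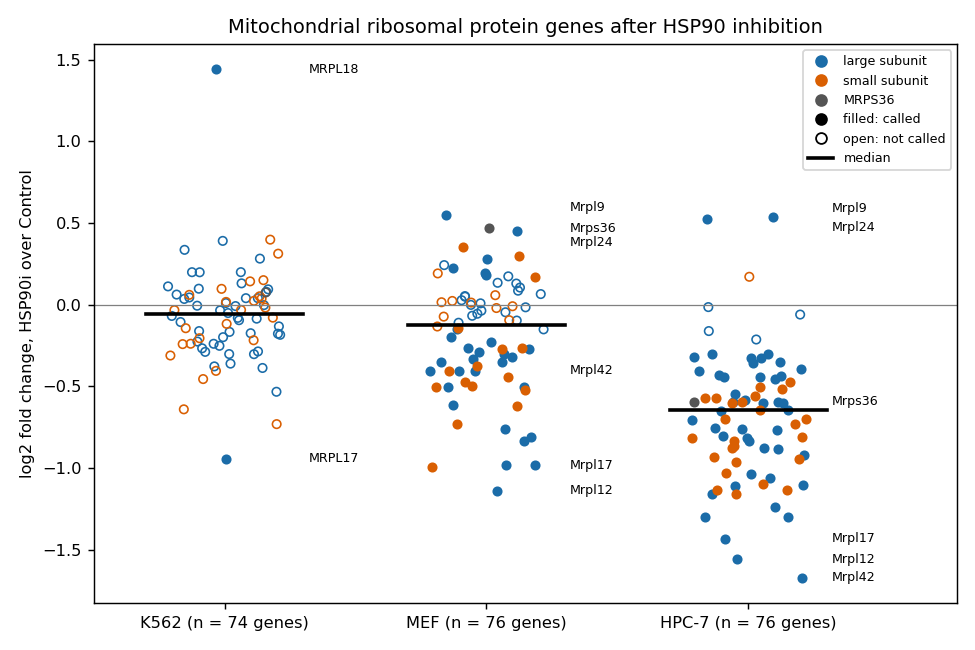
Log2 fold change (HSP90i over Control) of every mitochondrial ribosomal protein gene in each line. Each point is a gene, coloured by subunit, filled where called and open where not; bars are medians. In HPC-7 the cloud is centred at -0.65 with 2 genes called higher; in MEF it spans -1.14 to 0.55; in K562 MRPL18 and MRPL17 are the called genes.

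The share of a library's counts that fell on these genes moved the same way. In HPC-7 it was 0.232%, 0.237% and 0.213% in HSP90i libraries, against 0.342%, 0.339% and 0.350% in Control libraries. In MEF it was 0.298%, 0.301% and 0.291% in HSP90i libraries, against 0.334%, 0.317% and 0.342% in Control libraries. The groups did not overlap in either mouse line. In K562 it was 0.423%, 0.445% and 0.414% in HSP90i libraries, against 0.551%, 0.441% and 0.414% in Control libraries, where Control replicate 1 holds the high value and the other Control libraries lie within the HSP90i range or at its edge.

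**Figure D2:**
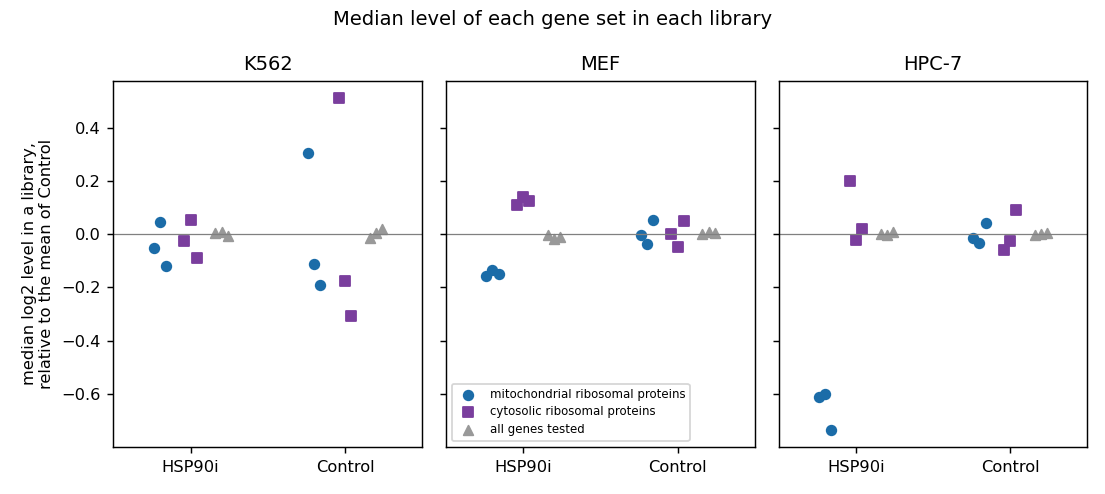
Median log2 level of the mitochondrial ribosomal, cytosolic ribosomal and all tested genes in each library, relative to the Control mean of the same line; each point is 1 library. The 3 HPC-7 HSP90i libraries lie at -0.61, -0.60 and -0.74 for the mitochondrial ribosomal genes, and K562 Control replicate 1 lies above the other K562 libraries for both ribosomal sets.

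In HPC-7 the fall reached both subunits. Of 49 genes of the large subunit, 43 fell and 2 rose, with a median log2 fold change of -0.60. Of 26 genes of the small subunit, 25 fell, with a median of -0.77, and the 26th, Mrps9, had a log2 fold change of 0.17. Genes with a bacterial counterpart fell in 43 of 47 cases (median -0.60) and genes found only in mitochondria in 25 of 28 (median -0.81). Over all tested genes in HPC-7 36.6% fell and 36.5% rose. The falls were of moderate size: 48 genes fell at least 1.5-fold and 16 at least 2-fold, where 24.1% of all tested genes fell at least 1.5-fold and 13.7% at least 2-fold. The 5 genes not called were Mrpl30, Mrpl39, Mrpl43, Mrpl48 and Mrps9, named because they are the exceptions.

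The largest falls in HPC-7 were in the large subunit. Mrpl42, which encodes a protein found only in mitochondrial ribosomes (RefSeq GRCm38.p6, chr10:95480805-95501949, minus strand), had 18.3, 24.7 and 15.9 CPM in HSP90i libraries, against 62.6, 59.9 and 64.0 CPM in Control libraries. Every HSP90i library was far below every Control library, a log2 fold change of -1.67 ± 0.14 (SE; edgeR adjusted p = 3.2e-06, n = 3 each). Mrpl12, the counterpart of the bacterial stalk protein that recruits translation factors, had 32.5, 41.7 and 28.4 CPM in HSP90i libraries, against 92.2, 99.9 and 110 CPM in Control libraries. Its log2 fold change was -1.56 ± 0.13 (SE; edgeR adjusted p = 3.9e-06). Mrpl17, a protein of the large subunit with a bacterial counterpart, had 11.98, 17.7 and 12.7 CPM in HSP90i libraries, against 37.0, 38.3 and 38.4 CPM in Control libraries. Its groups were also well apart, with a log2 fold change of -1.43 ± 0.13. Mrpl16, which lies near the peptidyl transferase centre, had 12.5, 16.2 and 10.1 CPM in HSP90i libraries, against 30.3, 32.8 and 32.5 CPM in Control libraries, a log2 fold change of -1.30 ± 0.15.

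Mrpl9 and Mrpl24, both of the large subunit and with bacterial counterparts, rose in HPC-7. Mrpl24 had 161, 137 and 140 CPM in HSP90i libraries, against 103, 98.2 and 103 CPM in Control libraries, a log2 fold change of 0.52 ± 0.08 (SE; edgeR adjusted p = 0.00018). Mrpl9 had 91.6, 82.1 and 81.9 CPM in HSP90i libraries, against 60.6, 55.6 and 59.7 CPM in Control libraries, a log2 fold change of 0.54 ± 0.08 (SE; edgeR adjusted p = 0.00014). In both genes the groups were apart, with the HSP90i libraries higher.

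Markers of blood cell identity moved with the treatment in HPC-7. Gata1, an erythroid transcription factor, averaged 106 ± 17 CPM in HSP90i libraries and 22.9 ± 1.4 CPM in Control libraries (SD, n = 3 each). Of the 6 progenitor markers, Kit, Ptprc and Tal1 rose, with log2 fold changes of 1.35, 1.05 and 1.04, and Gata2 and Lmo2 were not called. Cd34 fell, averaging 56.7 ± 38 CPM in HSP90i libraries and 341 ± 12 CPM in Control libraries. The 6 progenitor markers summed to 4136 to 4517 CPM in HSP90i libraries and 2455 to 2513 CPM in Control libraries. Of the 6 fibroblast markers only Pdgfrb exceeded 1 CPM, and the list summed to 270 to 308 CPM in HSP90i libraries and 180 to 201 CPM in Control libraries. The part of these shifts in the fall of the mitochondrial ribosomal genes was not tested.

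In MEF the same family split. Of the large subunit genes, 23 of 49 fell and 6 rose (median log2 fold change -0.11), and of the small subunit genes, 13 of 26 fell and 3 rose (median -0.14). Genes with a bacterial counterpart fell in 21 of 47 cases (44.7%) and mitochondria-specific ones in 15 of 28 (53.6%). The shares that fell were 46.9% for the large subunit and 50.0% for the small subunit. Over all tested genes in MEF 38.2% fell and 35.1% rose, and no test compared these shares. Falls of at least 1.5-fold were fewer than in HPC-7: 10 genes, of which 1, Mrpl12, fell at least 2-fold, where 23.3% of all tested genes fell at least 1.5-fold and 13.1% at least 2-fold.

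Mrpl12 fell most in MEF, with 44.6, 45.2 and 47.2 CPM in HSP90i libraries, against 104, 95.3 and 102 CPM in Control libraries. Its log2 fold change was -1.14 ± 0.06 (SE; edgeR adjusted p = 2.7e-07, n = 3 each), and the groups were far apart. Mrps18b, one of 3 mammalian relatives of the bacterial small subunit protein S18, had 27.7, 28.7 and 28.5 CPM in HSP90i libraries, against 55.3, 57.1 and 56.2 CPM in Control libraries, a log2 fold change of -0.99 ± 0.05. Mrpl17 had 34.1, 32.1 and 33.4 CPM in HSP90i libraries, against 69.3, 60.7 and 66.7 CPM in Control libraries, a log2 fold change of -0.98 ± 0.07. Replicates of each group lay close together for both genes. Mrpl40, a mitochondria-specific large subunit protein, had 17.9, 20.4 and 17.3 CPM in HSP90i libraries, against 35.3, 33.5 and 41.0 CPM in Control libraries, a log2 fold change of -0.98 ± 0.10.

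The largest rises in MEF were smaller than the largest falls. Mrpl9 had 63.7, 62.6 and 65.4 CPM in HSP90i libraries, against 42.1, 43.1 and 46.3 CPM in Control libraries, a log2 fold change of 0.55 ± 0.06 (SE; edgeR adjusted p = 2.8e-05). Mrpl24 had 54.7, 62.6 and 53.8 CPM in HSP90i libraries, against 42.3, 38.2 and 44.5 CPM in Control libraries, a log2 fold change of 0.45 ± 0.08. Both genes thus rose in each mouse line. Mrps36, a protein once assigned to the small subunit and now known as a component of the oxoglutarate dehydrogenase complex, had 24.6, 25.1 and 24.9 CPM in HSP90i libraries, against 17.2, 17.2 and 19.6 CPM in Control libraries, a log2 fold change of 0.47 ± 0.08. Mrps9, a small subunit protein with a bacterial counterpart, had 40.6, 42.0 and 41.2 CPM in HSP90i libraries, against 31.8, 31.7 and 33.6 CPM in Control libraries, a log2 fold change of 0.35 ± 0.06. The number of rises depended on the scaling: with upper quartile factors, which moved the median of all genes from -0.01 to 0.09, 19 genes rose and 25 fell, where 40.8% of all genes rose and 33.0% fell. Leaving out any 1 MEF library other than Control replicate 3 left 5 or 6 rises.

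Epithelial markers, low in MEF, rose with treatment: the 5 genes summed to 19.0 to 19.7 CPM in HSP90i libraries and 6.95 to 7.59 CPM in Control libraries, with Cdh1 at 4.52 ± 0.18 CPM in HSP90i libraries and 0.324 ± 0.049 CPM in Control libraries (SD, n = 3 each). The 6 fibroblast markers summed to 18571 to 19343 CPM in HSP90i libraries and 12864 to 13053 CPM in Control libraries, where Col3a1, Col1a1, Col1a2 and Pdgfra rose and Pdgfrb and Thy1 fell. Their part in the responses of the mitochondrial ribosomal genes was not tested.

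In K562 the called genes were MRPL18 and MRPL17. MRPL18 encodes a large subunit protein, known in mammalian cells also for a cytosolic form made during heat stress. It had 228, 249 and 208 CPM in HSP90i libraries, against 97.4, 77.1 and 77.6 CPM in Control libraries. The lowest HSP90i library was above every Control library, and the gene rose 2.71-fold (log2 fold change 1.44 ± 0.15, SE; edgeR adjusted p = 0.00099, n = 3 each); without Control replicate 1 the log2 fold change was 1.56. MRPL17 had 12.2, 12.98 and 11.7 CPM in HSP90i libraries, against 26.9, 22.04 and 21.8 CPM in Control libraries. It fell by 0.94 ± 0.15 on the log2 scale (SE; edgeR adjusted p = 0.0073) without overlap between groups. Its adjusted p was 0.057 without HSP90i replicate 1 and 0.053 without HSP90i replicate 3, with log2 fold changes of -0.93 and -0.91.

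Leaving out K562 Control replicate 1 changed the K562 picture. Then 8 of 74 genes rose and 4 fell, where 14.0% of all tested genes rose and 14.6% fell, and the family's median log2 fold change was 0.12 in place of -0.06. Beside MRPL18, the genes called higher without that library were MRPL38, MRPL43, MRPL49, MRPL54, MRPS6, MRPS18A and MRPS22, and beside MRPL17 those called lower were MRPS2, MRPS25 and MRPS26; they are named after their values were seen. The direction of the K562 median thus rests on 1 library, and the shares called stayed below those over all genes. MRPL12, which fell in both mouse lines, had 20.0, 22.6 and 20.4 CPM in K562 HSP90i libraries, against 39.0, 21.0 and 16.7 CPM in Control libraries. The HSP90i values lie inside the Control range, and its log2 fold change of -0.29 ± 0.28 (SE; edgeR adjusted p = 0.57) became 0.15 without Control replicate 1. Of the 6 K562 erythroid markers listed, 1, GATA1, was called lower with all libraries and 0 higher. Without Control replicate 1 GATA1 was again called lower (log2 fold change -0.58), while HBG1 (0.42) and HBG2 (0.38) were called higher.

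**Figure D3:**
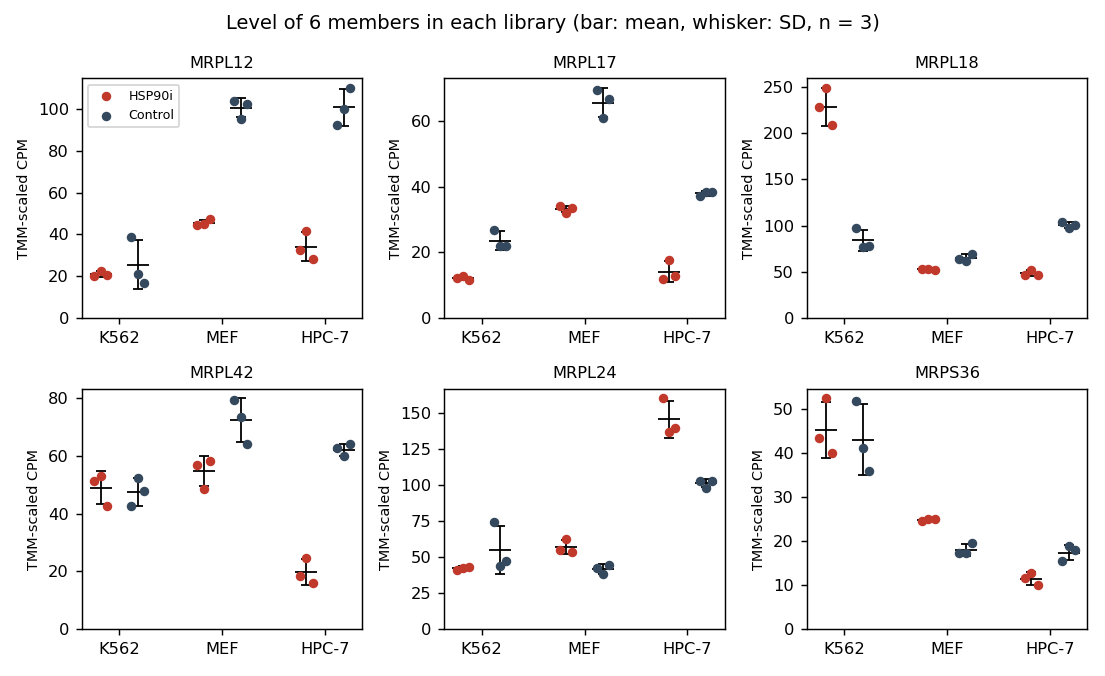
Level (TMM-scaled CPM, linear axis from 0) of 6 genes in each library, HSP90i left of Control within each line; points are libraries, bars means and whiskers SD (n = 3). MRPL17 is lower in HSP90i libraries of every line, MRPL18 is higher in K562 and lower in both mouse lines, and MRPL12 in K562 shows the single high Control library at 39.0 CPM.

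Across the 73 genes kept in every line, MRPL17 was the gene called lower in all 3, and MRPL39 was the gene called in none. MRPL18 rose in K562 but fell in both mouse lines. In MEF it had 53.5, 53.5 and 51.7 CPM in HSP90i libraries, against 64.4, 62.0 and 69.6 CPM in Control libraries, a log2 fold change of -0.30 ± 0.06. In HPC-7 it had 46.3, 52.4 and 46.7 CPM in HSP90i libraries, against 104, 97.3 and 101 CPM in Control libraries, a log2 fold change of -1.06 ± 0.08. No test was made of the difference between species, and the share of all genes called alike in every line was not computed.

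The mouse lines ranked the genes in a partly similar order, and no correlation over all genes was computed to set beside it. Over 73 genes, Pearson's r between the MEF and HPC-7 log2 fold changes was 0.62 and Spearman's rho 0.54, a description across genes that are not independent replicates; no library is shared. For K562 the r was 0.21 with MEF and 0.06 with HPC-7. Of these genes, 33 fell in both mouse lines, which is 97.1% of the MEF falls and 49.3% of the HPC-7 falls, while 2 rose in both and 6 rose in MEF and fell in HPC-7. The HPC-7 falls took in 67 of the 73 genes, so a high share of the MEF falls among them is not a result of its own. The shares of all tested genes that fell in both lines, rose in both or moved in opposite directions were not computed.

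**Figure D4:**
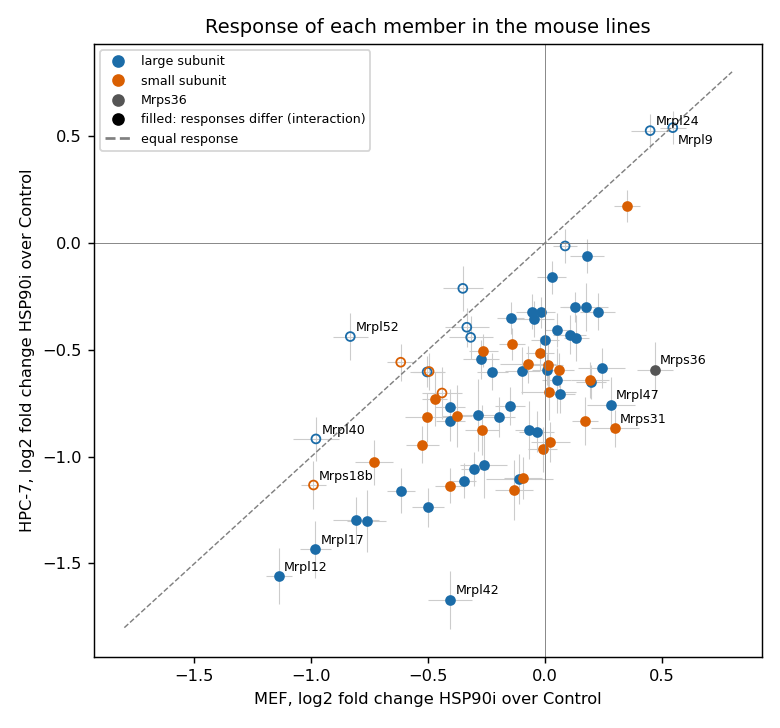
Log2 fold change of each gene in MEF (horizontal) and HPC-7 (vertical), with SE bars; filled points had responses that differed in the interaction test, and the dashed line marks equal responses. Most points lie below the line; Mrpl9 and Mrpl24 lie on it at the upper right and Mrpl40 near it at the lower left.

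The difference between the mouse lines was tested directly as an interaction over the 12 mouse libraries, given as the MEF response minus the HPC-7 response. Of 76 genes, 63 had a positive difference past the threshold, where 25.4% of all 13720 genes tested did, and 0 had a negative one, where 17.8% of all genes did; at an unadjusted p under 0.05 edgeR also gave 0 negative, and DESeq2 gave 50 positive and 1 negative. The median difference was 0.61 over the family and 0.11 over all genes, so 0.50 relative to all genes. The joint scaling moved this count: it was 50 with RLE factors, and 38, 42 and 38 without HPC-7 Control replicate 1, 2 or 3, where the all-gene median lay between -0.11 and -0.10. Relative to the all-gene median, the family's difference stayed between 0.44 and 0.53 in all 19 alternatives run.

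The largest differences were in genes that fell in HPC-7 and rose, or fell less, in MEF. Mrpl42 differed by 1.38 ± 0.18 on the log2 scale (SE; edgeR adjusted p = 2.0e-05): in MEF it had 57.0, 48.6 and 58.3 CPM in HSP90i libraries, against 79.2, 73.4 and 64.1 CPM in Control libraries, a log2 fold change of -0.41 ± 0.09. Mrps31, a mitochondria-specific small subunit protein, differed by 1.28 ± 0.14, with log2 fold changes of 0.30 in MEF and -0.87 in HPC-7. Mrps36 differed by 1.18 ± 0.15; in HPC-7 it had 11.6, 12.8 and 9.95 CPM in HSP90i libraries, against 15.4, 18.9 and 17.8 CPM in Control libraries. Mrpl47, a large subunit protein at the exit of the peptide tunnel, differed by 1.16 ± 0.16, with log2 fold changes of 0.28 in MEF and -0.76 in HPC-7. The MEF rises of Mrps31 and Mrpl47 were not called when any of 4 alternatives each was used, among them leaving out HSP90i replicate 2 or 3. Mrpl11, at the base of the stalk that carries Mrpl12, differed by 0.97 ± 0.11, with log2 fold changes of 0.20 in MEF and -0.65 in HPC-7.

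For Mrpl12 and Mrpl17, which fell in both lines, the differences of 0.54 ± 0.16 and 0.57 ± 0.16 passed the threshold (edgeR adjusted p = 0.013 and 0.011) but did not without any 1 HPC-7 Control library, where they were 0.27 to 0.38 and 0.35 to 0.37. Mrps12, a protein of the decoding centre, differed by 0.83 ± 0.19, with log2 fold changes of 0.02 in MEF and -0.70 in HPC-7. The 3 relatives of bacterial S18 responded unequally. Mrps18c, of the small subunit, differed by 0.62 ± 0.15 (log2 fold changes of -0.07 in MEF and -0.57 in HPC-7), although its adjusted p was 0.066 to 0.099 without any 1 HPC-7 Control library. Mrps18a, a large subunit protein despite its name, had log2 fold changes of -0.32 in MEF and -0.44 in HPC-7, and Mrps18b -0.99 and -1.13; neither difference passed the threshold (edgeR adjusted p = 0.24 and 0.10).

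The list of mitoribosomal proteins whose symbols do not match the rule also held falls. Of 6 such genes, 4 fell in HPC-7, where 36.6% of all tested genes fell, and 5 in MEF, where 38.2% did; DESeq2 called 4 lower in HPC-7 and 2 in MEF. Chchd1, a small subunit protein, averaged 18.5 ± 2.4 CPM in HPC-7 HSP90i libraries and 49.5 ± 2.6 CPM in Control libraries (SD, n = 3 each), a log2 fold change of -1.42 ± 0.11, and in MEF 20.9 ± 1.5 CPM in HSP90i libraries and 46.4 ± 2.4 CPM in Control libraries, a log2 fold change of -1.15 ± 0.07. Ptcd3, another small subunit protein, had log2 fold changes of -0.61 in HPC-7 and -0.63 in MEF. Ict1, the older symbol of MRPL58, a peptidyl-tRNA hydrolase built into the large subunit, had -0.26 in HPC-7 and 0.06 in MEF, neither called. In K562 edgeR called 0 of the 6, with 0 at an unadjusted p under 0.05, and DESeq2 also called 0; edgeR called 0 without Control replicate 1 as well.

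Cytosolic ribosomal protein genes did not follow the mitochondrial ones in the mouse lines. In HPC-7, 18 of 80 (22.5%) rose and 10 (12.5%) fell (median log2 fold change 0.07), where 36.5% of all genes rose and 36.6% fell. In MEF 40 of 79 (50.6%) rose and 2 (2.5%) fell (median 0.14), where 35.1% of all genes rose and 38.2% fell. Nuclear genes for respiratory chain and ATP synthase subunits fell in HPC-7, 70 of 77 with 4 higher (median -0.66), and in MEF 11 of 77 fell and 20 rose (median 0.07). In K562 neither list had a gene called by edgeR or DESeq2, where edgeR called 5.11% of all genes higher and 5.96% lower. At an unadjusted p under 0.05 edgeR gave 0 of 81 cytosolic ribosomal genes and 1 of 78 respiratory chain genes, which was higher. Without K562 Control replicate 1, 40 of 81 cytosolic ribosomal genes rose and 0 fell (median log2 fold change 0.24), and 6 of 78 respiratory chain genes rose and 0 fell (median 0.18), where 14.0% of all genes rose and 14.6% fell. The respiratory chain genes shared the HPC-7 fall, whereas in MEF their median lay on the other side of 0 from that of the mitochondrial ribosomal genes.

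**Figure D5:**
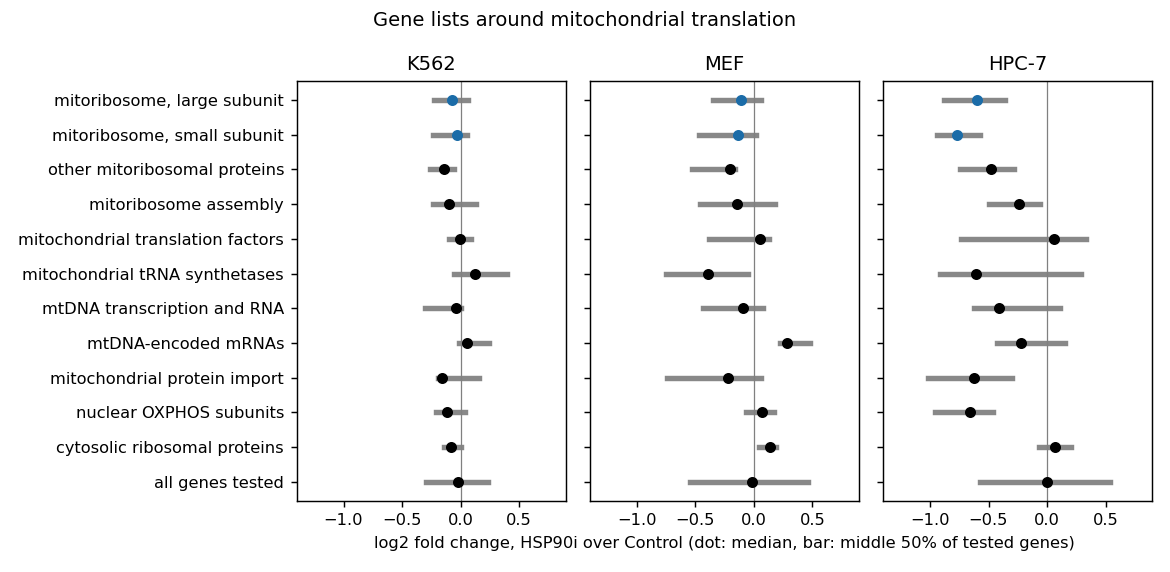
Median (dot) and middle 50% (bar) of the log2 fold changes, HSP90i over Control, of gene lists around mitochondrial translation in each line; mitoribosomal subunits are in blue. In HPC-7 the large subunit (-0.60), the small subunit (-0.77) and nuclear OXPHOS subunits (-0.66) lie left of 0 while cytosolic ribosomal proteins lie at 0.07.

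In the mouse lines, factors that build the mitochondrial ribosome fell about as often as genes at large and rose less often. Of 26 assembly genes, 11 (42.3%) fell and 5 (19.2%) rose in HPC-7, where 36.6% of all tested genes fell and 36.5% rose. In MEF 10 (38.5%) fell and 5 (19.2%) rose, where 38.2% and 35.1% of all tested genes did. In K562 3 (11.5%) fell and 0 rose, where 5.96% of all genes fell and 5.11% rose. Without Control replicate 1, 3 fell and 3 rose, where 14.6% and 14.0% of all genes did. Tfb1m, which methylates the small subunit rRNA, averaged 3.04 ± 0.39 CPM in HPC-7 HSP90i libraries and 13.3 ± 1.1 CPM in Control libraries (SD, n = 3 each), a log2 fold change of -2.12 ± 0.15. Noa1, an assembly GTPase, had log2 fold changes of -1.33 in HPC-7 and -1.36 in MEF, and Rnmtl1, an rRNA methyltransferase of the large subunit, -1.63 and -1.11. In K562 MRM1, another rRNA methyltransferase, averaged 10.4 ± 0.51 CPM in HSP90i libraries and 25.3 ± 5.3 CPM in Control libraries, a log2 fold change of -1.28 ± 0.18.

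Of 16 mitochondrial translation factors, 6 (37.5%) fell and 6 (37.5%) rose in HPC-7, close to the 36.6% and 36.5% of all tested genes. In MEF 5 fell and 3 rose, 31.2% and 18.8%, where 38.2% and 35.1% of all tested genes did. Tsfm, the exchange factor of the elongation factor Tufm, fell in both, with log2 fold changes of -1.21 and -1.11, and Tufm itself had -0.73 in HPC-7. Guf1, a ribosome-bound GTPase, rose in HPC-7, with a log2 fold change of 0.87 ± 0.07. In K562 GFM2 was the 1 of 17 called, where 11.1% of all genes were. It averaged 85.3 ± 5.2 CPM in HSP90i libraries and 38.3 ± 7.6 CPM in Control libraries (SD, n = 3 each). Without Control replicate 1, 2 of the 17 rose and 0 fell, where 14.0% of all genes rose and 14.6% fell. Of 17 tRNA synthetase genes, 11 (64.7%) fell and 5 (29.4%) rose in HPC-7, and 10 (58.8%) fell and 3 (17.6%) rose in MEF. The all-gene shares in these lines are given above. In K562 2 (11.8%) rose and 0 fell, where 5.11% of all genes rose and 5.96% fell. Without Control replicate 1, 5 rose and 1 fell, where 14.0% and 14.6% of all genes did. The 17 synthetase genes had a median log2 fold change of -0.60 in HPC-7, and the lowest value was -1.75. There 4 of them fell at least 2-fold, where 13.7% of all tested genes did. Against that direction, Ears2 (1.86) and Lars2 (1.67) rose in HPC-7. In MEF Mars2 (-1.75) and Tars2 (-0.96) fell and Vars2 (1.09) rose. EARS2 (0.94) and RARS2 (0.49) rose in K562, all as log2 fold changes. The RARS2 call was lost in 9 of the 13 alternatives run in K562.

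The protein import machinery, through which every mitoribosomal protein passes, fell in 13 of 18 tested genes in HPC-7, with 2 higher, and in 10 of 18 in MEF, with 3 higher. These are 72.2% and 55.6%, beside 36.6% and 38.2% of all tested genes. In K562 1 rose and 1 fell (5.6% each), where 5.11% of all genes rose and 5.96% fell. Without Control replicate 1, 4 rose and 2 fell, where 14.0% and 14.6% of all genes did. Timm50, an inner membrane receptor, averaged 26.9 ± 4.7 CPM in HPC-7 HSP90i libraries and 79.6 ± 5.4 CPM in Control libraries (SD, n = 3 each). Tomm40, the outer membrane channel, had a log2 fold change of -1.12 ± 0.07 in MEF, and Tomm5, a small subunit of the same complex, -1.20 in MEF and -1.10 in HPC-7. Hspa9, the mitochondrial HSP70 that pulls proteins in, had log2 fold changes of -1.08 in HPC-7 and -0.34 in MEF, whereas in K562 HSPA9 rose by 0.57 ± 0.11, with an adjusted p of 0.064 to 0.086 in edgeR without any 1 of the HSP90i libraries or without Control replicate 2.

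The mRNAs that mitochondrial ribosomes translate had a median log2 fold change of 0.28 in MEF and -0.23 in HPC-7. Of 11 mitochondrially encoded mRNAs tested, 4 (36.4%) rose in MEF and 0 fell, where 35.1% of all tested genes rose and 38.2% fell. The share that rose was thus close to that of all genes. At an unadjusted p under 0.05 edgeR also gave 0 lower, as did DESeq2. The 4 were mt-Nd4 (log2 fold change 0.47), mt-Co1 (0.50), mt-Cytb (0.53) and mt-Nd4l (0.61). In HPC-7 mt-Nd1 (-0.80), mt-Nd5 (-0.79) and mt-Cytb (-0.23) fell and mt-Nd4 rose (0.26). These are 27.3% and 9.1% of the 11, where 36.6% of all tested genes fell and 36.5% rose. In K562 edgeR called 0 of 13, where 5.11% of all tested genes rose and 5.96% fell. At an unadjusted p under 0.05 it gave 3 higher, and DESeq2 called 1 higher. Without Control replicate 1 edgeR called 9 higher and 0 lower (median log2 fold change 0.26), where 14.0% of all genes rose and 14.6% fell. Genes for mitochondrial DNA expression fell in 11 of 18 cases (61.1%) in HPC-7 and in 7 of 18 (38.9%) in MEF. Over all tested genes 36.6% and 38.2% fell. In each line 2 of the 18 (11.1%) rose, where 36.5% and 35.1% of all tested genes did. In K562 1 of 19 (5.3%) fell, where 5.96% of all genes did. Without Control replicate 1, 4 fell and 1 rose, where 14.6% and 14.0% of all genes did. Tfam, which packages mitochondrial DNA, had log2 fold changes of -0.75 and -0.44.

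Of the regulators listed, Myc and the coactivator gene Pprc1 fell in all 3 lines. Myc averaged 32.9 ± 26 CPM in HPC-7 HSP90i libraries and 240 ± 6.6 CPM in Control libraries, 11.9 ± 0.90 CPM in MEF HSP90i libraries and 79.8 ± 1.7 CPM in MEF Control libraries, and, as MYC, 93.2 ± 6.3 CPM in K562 HSP90i libraries and 251 ± 37 CPM in K562 Control libraries (SD, n = 3 each). Its log2 fold changes were -2.89 in HPC-7, -2.76 in MEF and -1.43 in K562, and those of Pprc1 -2.50, -2.76 and -0.90; in K562 both were also called lower without Control replicate 1. Nrf1 fell more in MEF (-1.44) than in HPC-7 (-0.25), a difference of -1.07 ± 0.09 in the interaction test (SE; edgeR adjusted p = 6.5e-07, and 1.5e-20 to 8.1e-05 over the alternatives run). Yy1 had -0.28 in HPC-7 and -0.31 in MEF, both called, and Gabpa -0.15 and -0.18, neither called.

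The promoter letters were set beside these responses as a description. In HPC-7 the 13 genes with the NRF1 motif had a median log2 fold change of -0.57 and the 54 without it -0.70; in MEF the medians were 0.03 and -0.15. The 23 genes with the ETS motif had medians of -0.70 in HPC-7 and -0.27 in MEF, against -0.65 and -0.04 in the 44 without. The 8 genes with the YY1 motif had medians of -0.83 in HPC-7 and -0.23 in MEF, against -0.64 and -0.09 in the 59 without. The 5 with the E-box had medians of -0.88 and -0.11, against -0.65 and -0.12 in the 62 without. Mrpl12, with an NRF1 match, and Mrpl42, with a YY1 match, are at the low end in HPC-7, but Mrpl9, which rose, also held an NRF1 match.

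Many of the genes start back to back with a neighbour. Of the 67 promoters matched, 23 (34.3%) had a start site on the opposite strand within 1000 bp, where 7.5% of all protein-coding genes and 13.1% of those tested in HPC-7 did. In HPC-7, 13 of the 23 neighbours fell with their mitochondrial ribosomal gene and 7 rose, where 36.6% and 36.5% of all tested genes did. In MEF 9 fell and 6 rose, where 38.2% and 35.1% of all tested genes did. The 23 neighbours include Mrpl46 and Mrps11 themselves. Those 2 start 42 bp apart, as printed above for Mrps11; in HPC-7 they had log2 fold changes of -0.81 and -1.03, and in MEF -0.20 and -0.73. Mrpl47 starts 308 bp from Ndufb5, a complex I subunit, which likewise rose in MEF (0.27) and fell in HPC-7 (-0.36).

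By the start sites used here, Mrpl18 starts 238 bp from Tcp1, a subunit of the cytosolic chaperonin CCT. The pair was singled out after its values were seen. In K562 TCP1 averaged 793 ± 32 CPM in HSP90i libraries and 280 ± 21 CPM in Control libraries (SD, n = 3 each), a log2 fold change of 1.5 ± 0.12 beside 1.44 for MRPL18; without Control replicate 1 both were 1.56. In HPC-7 Tcp1 averaged 295 ± 39 CPM in HSP90i libraries and 549 ± 13 CPM in Control libraries, a log2 fold change of -0.89 ± 0.09 beside -1.06 for Mrpl18. In MEF its log2 fold change was -0.03 ± 0.04, not called, beside -0.30 for Mrpl18. The distance is that of the mouse genes, since no human annotation was used here.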

How the data were processed

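RNA-seq of K562, MEF and HPC-7 cells (3 HSP90i and 3 Control libraries each) was used; the HSP90 ChIP-seq peaks were not used here. The authors deposited raw read counts per gene; the submitters' processing notes name Trim Galore, TopHat2 (2.0.13), Picard, featureCounts and DESeq2. The annotation behind each table and the strand setting of the counting are not stated, so reads from overlapping genes or near-identical copies cannot be assigned with certainty. Counts were tested per line with edgeR 4.0.16 (R 4.3.3): filterByExpr, TMM factors, quasi-likelihood F test, Benjamini-Hochberg adjustment over all genes tested, threshold 0.05. SE is the log2 fold change over the square root of F. MEF and HPC-7 responses were compared by an interaction term over 12 libraries. On simulated counts in which few genes changed, 94.0% of 2-fold changes were recovered in MEF, 95.5% in HPC-7 and 68.7% in K562. In the mouse data most genes were called (73.4% in MEF, 73.1% in HPC-7), so these rates need not hold there. Genes named were the 4 largest called changes per direction and line with mean log2 CPM of at least 3 and groups apart, those called alike in all lines, the 4 largest interactions, fixed genes, up to 3 per list with the smallest p, and mitochondrial mRNAs and fixed regulators. Some genes the rule names are not reported here. Genes and lists were chosen with earlier results of these data known. Alternatives were other scalings, filters, DESeq2 1.42.0, a replicate block and leaving out each library.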

Additional observations from a re-analysis of the deposited data

Results flagged for a closer look

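The following genes are listed because their MEF and HPC-7 responses differed in the interaction test (MEF response minus HPC-7 response, log2 scale). The differences were 1.384 for Mrpl42, 1.282 for Mrps31, 1.18 for Mrps36, 1.159 for Mrpl47, 0.965 for Mrpl11, 0.8308 for Mrps12, 0.6161 for Mrps18c, 0.5693 for Mrpl17 and 0.5373 for Mrpl12. Over the family, 63 of 76 genes had a positive difference and 0 a negative one, where 25.4% and 17.8% of all genes did. Line and dose cannot be told apart in this test. The differences of Mrps18c, Mrpl17 and Mrpl12 did not pass the threshold whichever HPC-7 Control library was left out. The median difference over all genes was 0.11.

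MRPL18 is listed because it rose in every K562 HSP90i library (log2 fold change 1.441) while it fell in every MEF and every HPC-7 HSP90i library relative to Control. The K562 value was set beside each mouse line without a test of the difference.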

How the results depend on the processing

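In HPC-7, 68 or 69 genes fell in all alternatives run, and the family's median relative to all genes lay between -0.77 and -0.63. In K562 the number called lower was 2 with library size alone or DESeq2 and 3 with no filter or the replicate block, and 0 to 4 when 1 library was left out, while the number called higher was then 1 to 8. The K562 median relative to all genes ran from -0.12 to 0.11, the high end without Control replicate 1. In MEF, upper quartile factors gave 19 higher and a median of -0.019, and leaving out 1 library gave 5 to 13 higher. Positive interactions numbered 38 to 64 when 1 library was left out, with 0 or 1 negative; 1 negative appeared with DESeq2, upper quartile or RLE factors and unscaled library sizes, and with RLE factors it was Mrpl52. Same-numbered libraries deviated together in some pairs only. Their correlations were 0.28, 0.04 and 0.45 in K562, 0.27, -0.22 and -0.25 in MEF, and 0.01, 0.02 and -0.09 in HPC-7. K562 pairs with unlike numbers lay between -0.39 and 0.17, below the same-numbered pairs of replicates 1 and 3 but not of replicate 2. The highest pair with unlike numbers reached 0.38 in MEF and 0.10 in HPC-7, above every same-numbered pair of that line. Whether same-numbered libraries were handled together was not tested. With the replicate block the lower and higher counts were 3 and 1 in K562, 32 and 9 in MEF and 68 and 2 in HPC-7, with 56 positive interactions. The cause of these shifts was not tested.

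Among named genes, 1543 gene-by-setting values kept direction and side of the threshold, 66 lost the call, 7 gained it and 23 changed sign, none of them called. With library size alone and upper quartile factors, K562 MRPS18B was -0.079 and -0.059 and MRPS36 -0.024 and -0.0015; MEF Mrps18c was 0.032 with upper quartile factors. When 1 library was left out, K562 MRPL12 ranged from -0.51 to 0.15, MRPL11 from -0.25 to 0.13, MRPS12 from -0.40 to 0.065, MRPS18B from -0.075 to 0.20, MRPS18C from -0.15 to 0.041, MRPS36 from -0.039 to 0.23, YY1 from -0.17 to 0.057 and TFAM from -0.27 to 0.060, and MEF Mrps12 from -0.070 to 0.18 and Mrps18c from -0.16 to 0.049. The simulation had 3 libraries per group and few changed genes. It recovered 16.4% of 1.5-fold changes in K562, against 77.6% in MEF and 68.7% in HPC-7.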
